A study of Saccharomyces cerevisiae with 16 samples.

Results

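Acetylation of histone H3 at lysine 18 (H3K18ac) was compared within the Building (RB) phase of the Yeast Metabolic Cycle (YMC), between its early and its later time points. The data were 16 chromatin immunoprecipitation (ChIP-seq) libraries, 1 per time point, of which 4 entered the comparison: time points 6 and 7 (49.15 and 49.32 h) for early RB, and time points 9 and 10 (49.65 and 49.82 h) for later RB. They were chosen by sampling time alone. Time points 5, 8 and 11 were used only to describe what lay before, between and after these groups. Every library came from the same strain, ZKY329, a CEN.PK MATa strain that carries SPT7-FLAG::natMX, so the Spt7 subunit of the SAGA complex was tagged in both groups. The antibody was the same throughout (Millipore), and the groups differed only in when the cycling continuous culture was sampled.

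The YMC is an oscillation in oxygen consumption in which growth genes, cell division genes and genes of storage and fat breakdown are transcribed in turn. H3K18ac is laid down largely by Gcn5, the acetyltransferase of SAGA, mainly around the starts of active genes, and its donor is acetyl-CoA. In the RB phase cells of the culture that enter division replicate their DNA and go on to mitosis, after the burst of ribosome synthesis genes of the OX phase.

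For each of 6002 nuclear protein-coding genes, the coverage was averaged over 300 bp on each side of the start codon and set relative to the nuclear mean of that library. This relative coverage is 1 where a window equals the genome average. The 4 libraries held at least 7438547 to 8521238 reads each, with a mean nuclear coverage between 31.4 and 35.95 reads per base. No base exceeded 102 reads in any library, a ceiling that compresses differences at genes with high coverage. The start windows stood at 1.55 and 1.52 times the nuclear mean at time points 6 and 7, at 1.50 at time point 9 and at 1.44 at time point 10. The ratio of the start window to the last 300 bp of genes fell in the same order, from 1.89 and 1.83 to 1.75 and 1.63. This loss of contrast was largest in time point 10, the most deeply sequenced of the 4, and it moved with the groups; its part in the calls was not tested. The number of cells carrying the mark and the amount of the mark per cell cannot be told apart in such bulk samples. Nucleosome occupancy and DNA copy number cannot be separated from the mark either, since H3 and input were not used here. The study itself divided each sample by H3 of the same time point.

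Which genes changed H3K18ac as RB went on? Among the genes higher in later RB, POX1, INO1, CAT2, ALD4 and ACS1 had the largest differences, and 7 of 48 genes of fatty acid oxidation and the peroxisome and 8 of 48 cyclins and cell cycle regulators were called. Lower were 108 of 138 cytosolic ribosomal protein genes and 24 of 68 DNA replication genes, among them all 6 genes of the MCM2 to MCM7 helicase. The bud neck kinase gene KCC4 was also among the largest falls. Of the 5733 genes that reached the coverage minimum of 5 reads per base, limma with Benjamini-Hochberg adjustment over all of them called 628 at an adjusted p under 0.05 (11% of the genes tested). In later RB 101 were higher (1.76%) and 527 were lower (9.19%). The differences were small. Among the called genes the median difference on the scale of log2(relative coverage + 0.1) was 0.28 for the higher and -0.24 for the lower genes, and 11 genes moved by over 0.5. The standard error of a difference was between 0.06 and 0.13.

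**Figure D1:**
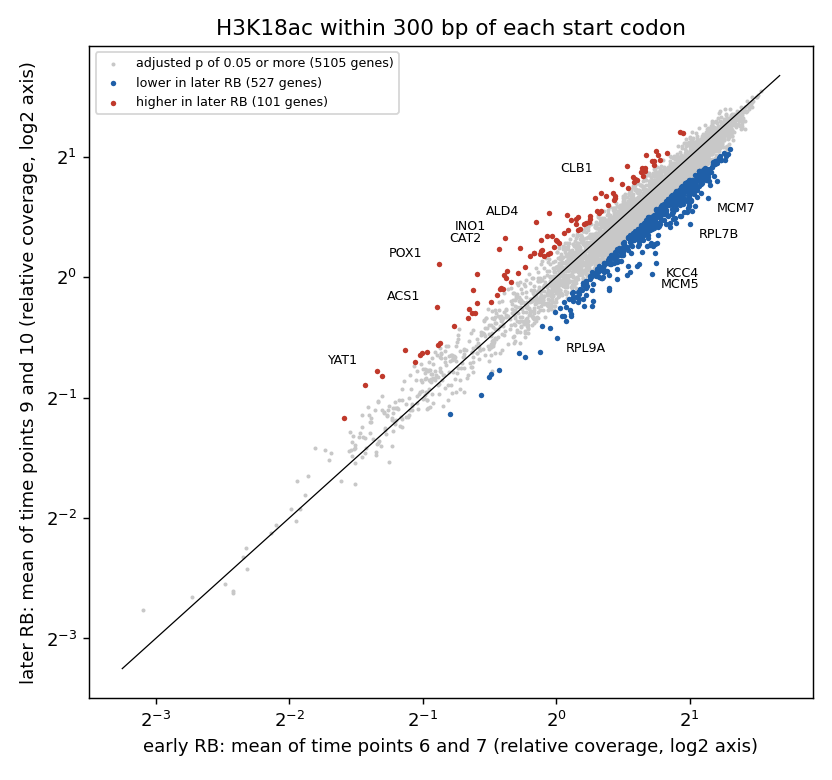
Relative H3K18ac coverage of 5733 genes in early RB (x, mean of time points 6 and 7) and later RB (y, mean of time points 9 and 10), both on log2 axes, with 1 point per gene and the line of equality. The 101 genes called higher (red) lie mostly at low to middle levels, with a median early level of 0.997, and the 527 called lower (blue) at middle to high levels, with a median of 1.72.

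The genes called higher had a lower early level than the rest. The early values enter the difference that chose these genes, and the ceiling compresses differences at high coverage. The levels are therefore a description. Their median relative coverage went from 0.997 in early RB to 1.27 in later RB, whereas the median over all genes tested went from 1.64 to 1.55. The genes called lower went from 1.72 to 1.43. For 100 of the 101 higher and 520 of the 527 lower genes, the values of the groups did not overlap. Over all genes tested, both later values were above both early values for 639 genes (11.1%) and below them for 2427 (42.3%), so values below early RB in both later libraries were common.

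Limits on the calls were these. The time points of a group are neighbours in time rather than repeats. In addition, limma estimated infinite prior degrees of freedom, so each gene's own spread had no weight. The standard errors and p-values rest on the spread of genes at a like level. The calls also leaned on time point 10: without it, 1 gene was called (MCM5), whereas without time point 6, 7 or 9 there were 190, 357 and 462. The excess of lower genes depended on the scaling too, with 42 higher and 41 lower after median-of-ratios scaling and 94 higher and 62 lower after quantile normalization. When time point 8 was added and a slope was fitted over time points 6 to 10, 121 genes were called higher and 868 lower. They included 92 of the 101 and 500 of the 527. The slope reuses time points 6, 7, 9 and 10, so this overlap was largely set in advance.

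POX1 had the largest rise of all genes. POX1 (chromosome VII, 108158 to 110404, R64) encodes acyl-CoA oxidase, the first enzyme of peroxisomal beta-oxidation. Its relative coverage was 0.529 and 0.559 in early RB and 0.890 and 1.27 in later RB. The groups did not overlap, which the naming rule required, and time point 8 lay between them at 0.772. The difference was 0.85 ± 0.09 (SE), or 1.81-fold after the pseudocount of 0.1 was added to both levels (limma, adjusted p = 2.18e-17), and POX1 passed in 18 of the 21 alternative settings in which it was tested. FOX2, the multifunctional enzyme of the next steps, had 0.615 and 0.680 and then 0.847 and 1.01, a difference of 0.46 ± 0.09. FAA2, an acyl-CoA synthetase whose window overlaps that of BUD25, rose by 0.34. At time point 11, which the comparison did not use, POX1 reached 2.23, FOX2 2.51 and FAA2 2.50, so most of their gain came after the later group.

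Carnitine carries acetyl units between peroxisome, cytosol and mitochondria. Among the genes called higher (1.76% of all genes tested) were 4 of carnitine, a grouping made after the values were seen. CAT2, the carnitine acetyltransferase of peroxisomes and mitochondria, had 0.699 and 0.790 in early RB and 1.06 and 1.30 in later RB, a difference of 0.59 ± 0.08. YAT1, a carnitine acetyltransferase of the outer mitochondrial membrane, was at a low level throughout, with 0.382 and 0.408 and then 0.509 and 0.655. Its difference was 0.45 ± 0.10. The related YAT2 and the carnitine carrier gene CRC1 both rose by 0.28. The values of the groups were apart for each of these 4 genes, which the naming rule required of CAT2 and YAT1. All were higher again at time point 11. Of all genes tested, 11.1% had both later values above both early ones. At time point 11, 3425 of 5733 were higher than at time point 10.

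In the fatty acid oxidation and peroxisome list 7 of 48 members were called higher (14.6%, against 1.76% of all genes) and none lower. Its median difference was 0.02, against -0.06 over all genes tested, and it stayed above 0 under each scaling, between 0.07 and 0.15. Peroxisome assembly genes gave no call. Of 26 peroxin (PEX) genes, counted after the values were seen, none was called in limma (2 at an unadjusted p under 0.05), and their differences ran from -0.13 to 0.17. Of 11 genes of beta-oxidation and fatty acid activation, also grouped afterwards, 3 were called higher. All 11 had their highest value of time points 6 to 10 at time point 10 and were higher still at time point 11. Of all 5733 genes tested, 593 had that highest value at time point 10, and 3425 were higher at time point 11 than at time point 10.

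In the acetate and acetyl-CoA list 3 of 24 members were called higher (12.5%, against 1.76% of all genes) and none lower. ALD4, a mitochondrial aldehyde dehydrogenase that makes acetate, had 0.884 and 0.920 and then 1.19 and 1.56 (0.55 ± 0.08). ACS1, an acetyl-CoA synthetase, had 0.529 and 0.549 and then 0.703 and 0.983 (0.55 ± 0.09). The acetate transporter gene ADY2 rose by 0.27. For all 3 genes the early values lay below the later ones, which the naming rule required of ALD4 and ACS1. Time point 8 lay between the group means. The median of the list was 0.02, and over the alternative settings it ran from -0.02 to 0.19.

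Of 29 TCA and glyoxylate cycle genes, 5 were called higher (17.2%, against 1.76% of all genes) and none lower. CIT3, a mitochondrial citrate and methylcitrate synthase, was far ahead of the others, with 0.909 and 1.02 in early RB and 1.33 and 1.56 in later RB (0.54 ± 0.07). CIT2, the peroxisomal citrate synthase of the glyoxylate route, went from 1.50 and 1.67 to 1.92 and 1.82 (0.23 ± 0.06). IDP2, MDH2 and ICL2 passed with smaller differences of 0.19, 0.20 and 0.20. The other 24 members did not pass, and the median of the list was -0.01 and changed sign with the scaling, from -0.03 to 0.07. Of 58 genes of the respiratory chain and ATP synthase none was called in limma, with 3 at an unadjusted p under 0.05 and differences from -0.19 to 0.08.

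**Figure D2:**
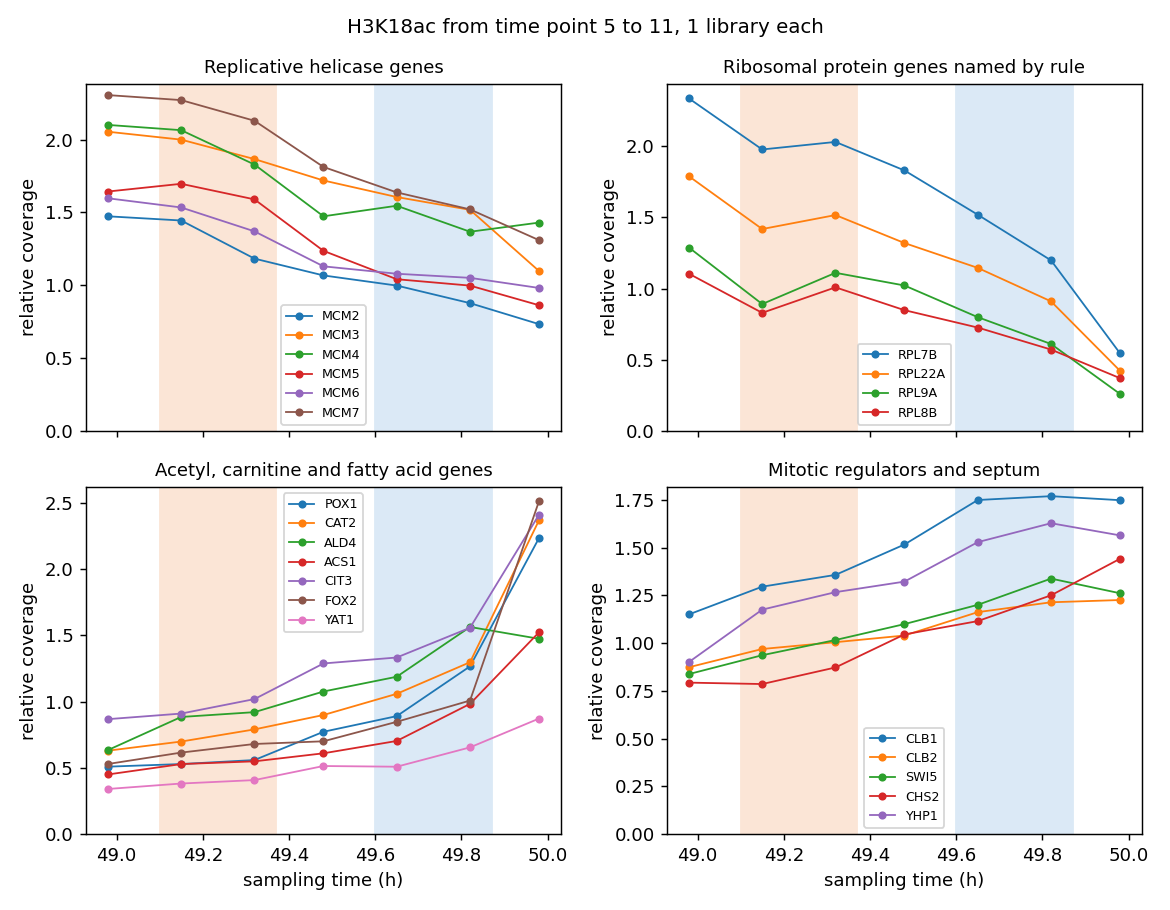
Relative H3K18ac coverage (y, linear from 0) against sampling time in hours (x) for time points 5 to 11, 1 library each, with early RB shaded orange and later RB shaded blue. MCM5 fell from 1.70 and 1.59 to 1.04 and 0.998, RPL7B from 1.98 and 2.03 to 1.52 and 1.20, POX1 rose from 0.529 and 0.559 to 0.890 and 1.27, and CLB1 from 1.30 and 1.36 to 1.75 and 1.77.

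INO1 (chromosome X, 134332 to 135933) encodes inositol-3-phosphate synthase, the first step of inositol synthesis. It had 0.747 and 0.787 in early RB, 0.979 at time point 8, and 1.14 and 1.37 in later RB. The groups did not overlap, which the naming rule required, and the difference was 0.64 ± 0.08 (limma, adjusted p = 5.72e-12). Unlike POX1 it was lower again at time point 11, at 1.12. CHO1, the phosphatidylserine synthase gene, went from 1.42 and 1.27 to 1.63 and 1.62 (0.26 ± 0.07). INO1 and CHO1 were the 2 called members of the 24 phospholipid synthesis genes (8.33% higher, against 1.76% of all genes tested). Of all the lists this one had the highest median difference, 0.10, and 18 of its members were above 0. It stayed above 0 under each scaling (0.15 to 0.36), and with quantile normalization 10 of the 24 were called higher.

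Among the 48 cyclins and cell cycle regulators, 8 were called higher (16.7%) and 5 lower (10.4%). Of all genes tested 1.76% were higher and 9.19% lower. CLB1, a mitotic cyclin gene, had 1.30 and 1.36 in early RB and 1.75 and 1.77 in later RB (0.38 ± 0.06, adjusted p = 6.34e-07 in limma). The other mitotic cyclin gene called, CLB2, went from 0.969 and 1.00 to 1.16 and 1.21 (0.24 ± 0.08). Both were at their lowest of time points 5 to 11 at time point 5.

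Genes of transcription factors and a corepressor were also among those called higher in this list. SWI5, an activator of genes at the end of mitosis, had 0.937 and 1.02 and then 1.20 and 1.34 (0.35 ± 0.08). YHP1, a homeobox repressor of early cell cycle genes, had 1.18 and 1.27 and then 1.53 and 1.63 (0.35 ± 0.07). The early and later values were apart in SWI5 and YHP1. NDD1 and FKH1, which act on the CLB2 group of genes and whose windows overlap those of NUD1 and ASG1, rose by 0.24 and 0.20, and NRM1, a corepressor of G1 genes, by 0.30. CHS2, of the budding, septins and cell wall list, encodes the chitin synthase that builds the primary septum when cells divide. CHS2 had 0.786 and 0.872 and then 1.12 and 1.25 (0.46 ± 0.08), but its window overlaps that of SCO1. BUB1, of the spindle checkpoint, was the 1 higher gene among 68 of cohesin, kinetochore and spindle (1.47%, against 1.76% of all genes tested). Its difference was 0.22 ± 0.07.

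The 5 lower genes of the list, a share near that of all genes tested, included SWI4 and FAR1. SWI4, the DNA-binding subunit of the SBF factor of G1, had 1.67 and 1.73 in early RB and 1.29 and 1.26 in later RB (-0.39 ± 0.07). FAR1, the inhibitor used in mating arrest, had 1.80 and 1.48 and then 1.22 and 1.21 (-0.40 ± 0.07). In both, every later value was below every early one. DBF2, a kinase of mitotic exit, ASH1, a repressor in daughter cells, and the cyclin gene PCL2 fell by 0.30, 0.26 and 0.24. The median of the regulator list was -0.02 and changed sign with the scaling, between -0.01 and 0.07.

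Of 68 DNA replication genes 24 (35.3%) were called lower, against 9.19% of all genes tested, and none higher, and the median difference was -0.14, against -0.06 over all genes tested. The median stayed below 0 under each scaling, between -0.17 and -0.08, where 6 to 8 members were called, and 1 was called without time point 10. The largest fall of all genes was that of MCM5 (chromosome XII, 691555 to 693882), a subunit of the helicase that opens the DNA. It had 1.70 and 1.59 in early RB, 1.24 at time point 8, and 1.04 and 0.998 in later RB. The difference was -0.64 ± 0.07, or a ratio of 0.643 after the pseudocount of 0.1 was added to both levels (limma, adjusted p = 1.00e-15), and MCM5 passed in 19 of 21 alternative settings. Its window overlaps that of PIG1, a divergent neighbour, and the coverage cannot be assigned to one of them.

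The other subunits of the same helicase moved likewise. MCM7 went from 2.27 and 2.13 to 1.64 and 1.52 (-0.45 ± 0.06). MCM2 went from 1.44 and 1.18 to 0.998 and 0.878 (-0.44 ± 0.08), and MCM6 from 1.53 and 1.37 to 1.08 and 1.05 (-0.41 ± 0.07). MCM4 fell by 0.39 and MCM3 by 0.29. So all 6 genes were called, a grouping made after the values were seen. In each, time point 6 was above time point 7 and time point 5 was above the early mean. Time point 10 was the lowest of time points 6 to 10 in each. Of all 5733 genes tested, these orders held for 3578, 2972 and 2930. The origin recognition complex, which loads the helicase, had no called gene among ORC1 to ORC6 in limma, with 3 at an unadjusted p under 0.05 and differences from -0.16 to 0.07.

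Some other called members of the list had their maximum later than the MCM genes did. POL12, a subunit of the primase complex, had 1.00 at time point 5, 1.09 and 1.32 in early RB, and 0.955 and 0.904 in later RB (-0.34 ± 0.08). POL30, the sliding clamp, had 1.05 at time point 5, then 1.45 and 1.62, and then 1.25 and 1.18 (-0.32 ± 0.07). CDC21, the thymidylate synthase gene, had 1.23 at time point 5, then 1.70 and 1.94, and then 1.59 and 1.31 (-0.31 ± 0.06). In these 3 genes, named after their values were seen, time point 7 was above time point 6, the reverse of the MCM order. That held for 2155 of all 5733 genes tested. Of the 68 replication genes 32 had their highest value of time points 5 to 11 at time point 7, which holds for 293 of all 5733 genes tested.

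In the list of cohesin, kinetochore and spindle genes 3 of 68 were lower (4.41%), a smaller share than the 9.19% of all genes. The cohesin genes IRR1 and PDS5 fell by 0.30 each and had their maximum of time points 5 to 11 at time point 7, with 1.44 and 0.889. None of the 11 histone genes was called in limma (1 at an unadjusted p under 0.05), and their differences lay between -0.02 and 0.17.

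The cytosolic ribosomal proteins were the list with the most calls. Of 138 genes 108 (78.3%) were called lower, against 9.19% of all genes tested. Every one of the 138 differences was below 0, from -0.54 to -0.05, with a median of -0.24. Over all genes tested, 1580 of 5733 differences were above 0. The median relative coverage of the list was 2.05 and 2.10 in early RB, 2.07 at time point 8, 1.93 and 1.55 in later RB and 0.861 at time point 11. The fall was thus uneven: against the early mean the median was -0.0049 at time point 8, -0.11 at time point 9 and -0.38 at time point 10. For 137 of the 138 genes, time point 10 was the lowest of time points 6 to 10 and time point 11 was lower again. Of all 5733 genes tested, time point 10 was the lowest for 2930 and time point 11 was below time point 10 for 2308. The calls depended on the libraries, with 50 genes called without time point 6, 37 without time point 7, 125 without time point 9 and none without time point 10.

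RPL7B (chromosome XVI, 173152 to 174702), which encodes a large subunit protein, led this list with 1.98 and 2.03 in early RB and 1.52 and 1.20 in later RB (-0.54 ± 0.06, adjusted p = 3.12e-14 in limma). Its window overlaps that of YPL199C. RPL22A went from 1.42 and 1.52 to 1.15 and 0.911 (-0.48 ± 0.07), RPL9A from 0.892 and 1.11 to 0.800 and 0.612 (-0.45 ± 0.09), and RPL8B from 0.830 and 1.01 to 0.727 and 0.573 (-0.45 ± 0.09). No later value reached an early one in these 4 genes, which the rule that named them required. Both later values were below both early ones for 42.3% of all genes tested. The list kept its direction under each scaling, with medians from -0.58 to -0.19, but 3 genes passed with median-of-ratios scaling, 7 with quantile normalization and 10 with a correction for the ceiling. For 97 of the 138 genes the mean coverage was over 0.5 of the ceiling, and the correction moved the median from -0.24 to -0.58.

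**Figure D3:**
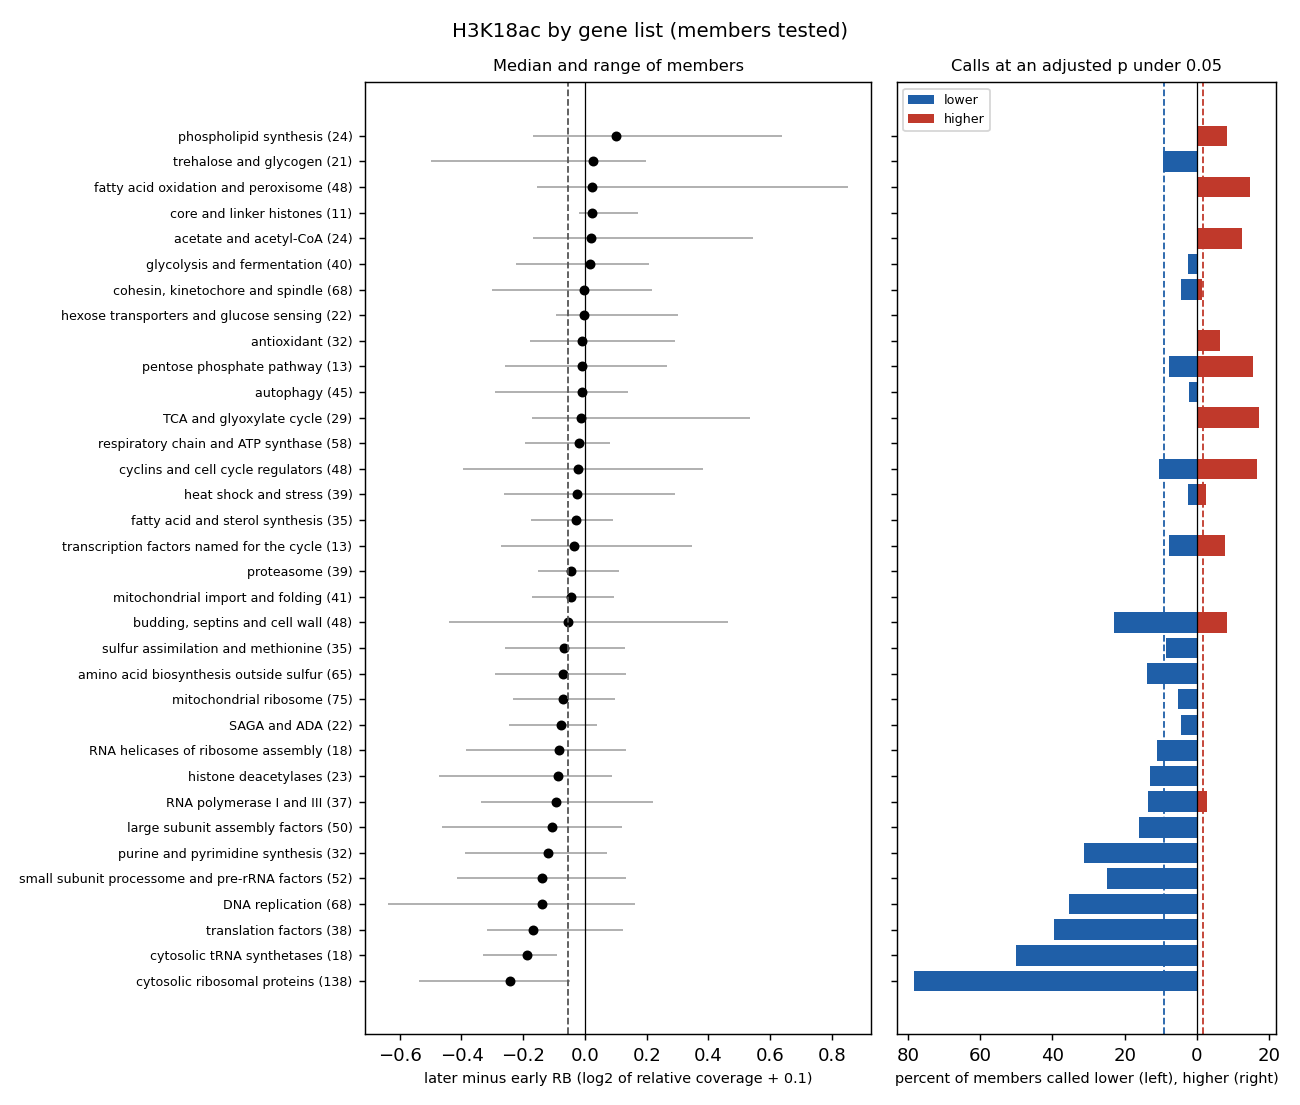
Difference between later and early RB by gene list, with the members tested in parentheses. Left, the median (point) and range (line) of the log2 difference, with a dashed line at the median of all genes (-0.06); right, the percent of members called lower (blue, to the left) and higher (red, to the right), with dashed lines at the shares of all genes, 9.19% and 1.76%. The cytosolic ribosomal proteins stand apart with 78.3% called lower.

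Other genes of protein synthesis had smaller differences in the same direction. Of 38 translation factor genes 15 were called lower (39.5%, against 9.19% of all genes tested), with a median of -0.17. Of 18 cytosolic tRNA synthetase genes 9 were (50%), with a median of -0.19. SUP45, the termination factor eRF1, fell by 0.32 and TIF5, the initiation factor eIF5, also by 0.32. CDC60 and THS1, the leucyl- and threonyl-tRNA synthetase genes, fell by 0.33 and 0.32. The medians of both lists stayed below 0 under each scaling, with at most 1 translation factor called.

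Ribosome assembly genes had already dropped before early RB. The list median of the small subunit processome was 1.95 at time point 5 and 0.984 and 1.13 in early RB, and it ended at 1.02 and 0.971 in later RB and 0.743 at time point 11. Of its 52 genes 13 were called lower (25%), and of 50 large subunit assembly factors 8 were (16%), against 9.19% of all genes tested. NOG2, a GTPase of large subunit export, had 2.38 at time point 5, then 1.32 and 1.31, and then 1.000 and 0.855 (-0.46 ± 0.08). EMG1, a methyltransferase of the small subunit rRNA, went from 1.79 and 1.83 to 1.44 and 1.23 (-0.41 ± 0.06). In both the early values lay above the later ones, which the naming rule required of NOG2. The medians, -0.14 and -0.11, stayed below 0 under each scaling. Among 37 genes of RNA polymerases I and III 5 were lower (13.5%), led by RPA190 and RPA34 of polymerase I (both -0.34). RPC34 of polymerase III was higher (0.22 ± 0.06).

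Purine synthesis genes fell in part. ADE13, the adenylosuccinate lyase gene, went from 2.13 and 1.84 to 1.58 and 1.41 (-0.39 ± 0.06), and ADE1 from 2.22 and 1.76 to 1.58 and 1.45 (-0.37 ± 0.06). The windows of both overlap a neighbour's, YLR358C and BUD14. In all 10 of 32 purine and pyrimidine genes were called lower (31.25%, against 9.19% of all genes tested) and none higher. The median of -0.12 stayed below 0 under each scaling.

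Genes of bud growth and the cell wall split in both directions, with 11 of 48 lower (22.9%) and 4 higher (8.33%). Of all genes tested 9.19% were lower and 1.76% higher. KCC4, a kinase of the bud neck, was the second most reduced gene of all, with 1.72 and 1.65 in early RB, 1.44 at time point 8, and 1.21 and 0.968 in later RB (-0.59 ± 0.07, adjusted p = 3.12e-14 in limma). BNI4, which ties chitin synthase to the bud neck, went from 1.22 and 1.19 to 0.863 and 0.836 (-0.46 ± 0.08). CHS3, the chitin synthase it recruits, went from 2.21 and 1.84 to 1.48 and 1.44 (-0.44 ± 0.06). KCC4 and BNI4 were in no list. For none of the 3 did the groups overlap, which the naming rule required of KCC4 and BNI4. The cell wall gene SCW10 fell by 0.40, and the mannoprotein gene CWP1 rose by 0.38, with 1.00 and 0.849 in early RB and 1.12 and 1.35 in later RB.

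Of the genes with the largest changes, RVB1 and IRC8 have roles outside these groups. RVB1, an ATPase of chromatin remodelling complexes, went from 1.48 and 1.41 to 1.09 and 0.938 (-0.48 ± 0.07), with a window that overlaps that of the deacetylase gene HST4. IRC8, a gene of little known function, went from 0.648 and 0.678 to 0.865 and 1.17 (0.54 ± 0.09).

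Of 22 SAGA and ADA genes 1 was called lower (4.55%), UBP8, the deubiquitinase, with 1.68 and 1.57 in early RB and 1.33 and 1.37 in later RB (-0.25 ± 0.07). GCN5 differed by -0.08 with an adjusted p of 0.49 in limma, and SPT7, the tagged subunit, by -0.08 with 0.54. Of 23 histone deacetylase genes and partners 3 were lower (13.04%, against 9.19% of all genes), with HST4 at -0.47 (in the window shared with RVB1), SUM1, a repressor that recruits a deacetylase, at -0.32, and SIR2 at -0.22.

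Of 39 heat shock and stress genes 1 was called higher and 1 lower (2.56% each). Of 32 antioxidant genes 2 were higher (6.25%), and of 21 trehalose and glycogen genes 2 were lower (9.52%). Of all genes tested 1.76% were higher and 9.19% lower. CTT1, the cytosolic catalase, rose by 0.29, from 1.11 and 0.888 to 1.11 and 1.37, and AHP1, a peroxiredoxin, by 0.23. In CTT1 the value of time point 9 exceeded that of time point 6 by less than the spread within either group. In trehalose and glycogen metabolism PIG1, which shares its window with MCM5, and GAC1, both regulators of glycogen synthase, fell by 0.50 and 0.23. TKL2 and SOL3 of the pentose phosphate pathway rose by 0.27 and 0.20, and RKI1 fell by 0.26. The heat shock and stress list had 1 other call, SSP120, which fell by 0.26. No gene of the proteasome, of fatty acid and sterol synthesis, of mitochondrial import and folding or of hexose transport and glucose sensing was called in limma, out of 39, 35, 41 and 22, with 2, 2, 3 and 2 at an unadjusted p under 0.05.

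Against the 9.19% of all genes called lower, the remaining lists had shares between 2.22% and 13.8%. Of amino acid genes outside sulfur 9 of 65 were lower (13.8%), with HIS3 at -0.29 and LEU9 at -0.25, and of sulfur genes 3 of 35 (8.57%), with MHT1 at -0.26 and SAM1 at -0.24. The MHT1 values overlapped, with 2.07 and 1.46 in early RB and 1.50 and 1.38 in later RB. In the mitochondrial ribosome 4 of 75 genes were lower, SWS2 (-0.23) and RML2 (-0.22) the most. Single genes were lower in glycolysis (PDC2, -0.22), autophagy (ATG23, -0.29) and among the transcription factors named for the cycle (STE12, -0.27), where YHP1 was higher. RNA helicases of ribosome assembly had 2 lower genes of 18 (11.1%), RRP3 (-0.38) and DBP3 (-0.21), and NOP1 and NIP7 of the assembly lists fell by 0.39 and 0.35. The windows of RRP3, NOP1 and NIP7 overlap those of SSF1, TSC13 and PUS1. In all, 275 of the 628 called genes were in a list and 353 in none.

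Time points 5, 8 and 11 did not enter the comparison. Time point 8 lay between the group means for 86 of the 101 higher genes (85.1%) and for 441 of the 527 lower genes (83.7%), against 46.4% of all genes tested. The lower genes fell further afterwards: time point 11 was below the later mean for 402 of the 527 (76.3%), against 46.0% of all genes, with a median of -0.23. Before early RB they were mostly higher, with time point 5 above the early mean for 75.3% against 51.8% of all genes. For 261 of the 527 (49.5%) the values fell from time point 5 to the early mean and then at each step to time point 10. This held for 12.5% of all genes. Early RB entered that order as its mean, so a fall within early RB was not required. The higher genes were less uniform at time point 11, where 59 of the 101 (58.4%) were above the later mean, against 54.0% of all genes. The early and later means also define these groups, so the shares that use them are a description.

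**Figure D4:**
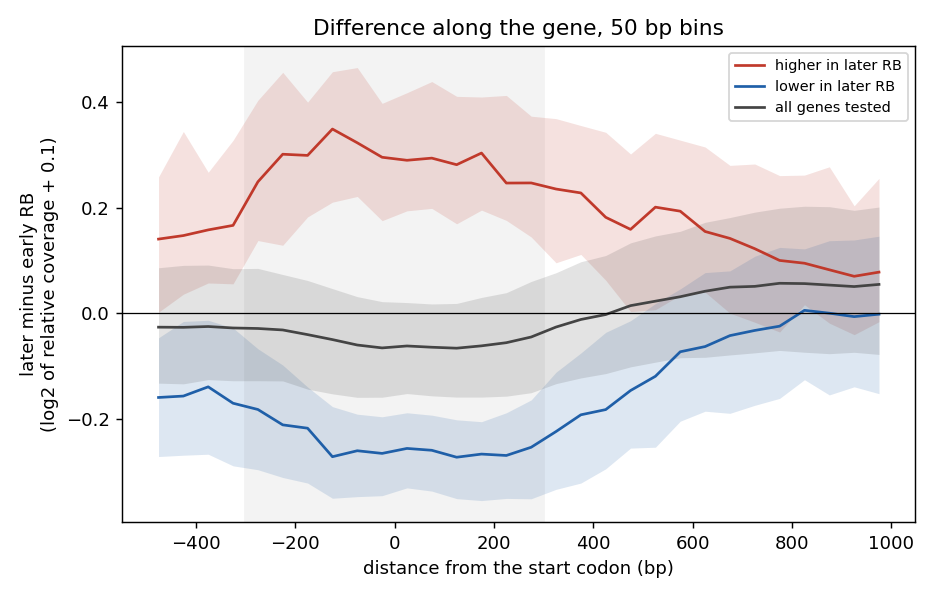
Difference between later and early RB (y, log2 of relative coverage + 0.1) against distance from the start codon in bp (x), in bins of 50 bp, as the median (line) and quartiles (band) over genes called higher, genes called lower and all genes tested. The shaded stretch is the window of the test. The medians of the called genes reach 0.35 and -0.27 within it, and that of the lower genes is near 0 beyond 800 bp.

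In the called genes the difference was largest within the window around the start, on which they were chosen. In the lower genes the median difference was between -0.27 and -0.25 in each bin from 150 bp upstream to 300 bp downstream of the start codon, -0.12 at 500 to 550 bp and 0.01 at 800 to 850 bp. In the higher genes it was largest at 150 to 100 bp upstream, with 0.35, and was 0.09 at 800 to 850 bp. Over the last 300 bp of genes longer than 1500 bp, the median was 0.05 in 206 lower genes, 0.11 in 38 higher genes and 0.08 in all 2146 such genes, where the same genes had -0.25, 0.28 and -0.06 in their start windows. Since the window around the start chose the called genes, only the stretches well outside it are free of that choice. Of the called genes 29 higher and 170 lower ones shared part of their window with another gene's.

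A smaller set passed under several scalings, all of which reuse the same 4 libraries. Passing them does not remove the dependence on time point 10 given above. Without time point 10 the difference was 0.62 for POX1 (0.85 with it), -0.38 for RPL7B (-0.54) and -0.61 for MCM5 (-0.64). Of the 101 higher genes 13 were also called with median-of-ratios scaling, with quantile normalization and with the ceiling correction, namely CAT2, CHS2, CIT3, CLB1, EHT1, GTT3, INO1, POX1, USB1, YEF1, YGL034C, YHP1 and YLR108C. Of the 527 lower genes 25 were, among them MCM3, MCM4, MCM5, MCM6, MCM7, POL1, SWI4, DBF2, KCC4, BNI4, CHS3, NOG2, EMG1, RPL7B and RPL22A. With the ceiling correction and quantile normalization together, an alternative added after seeing the data, the same 13 higher genes and 24 of these 25 lower genes were called, and DBF2 was not.

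**Figure D5:**
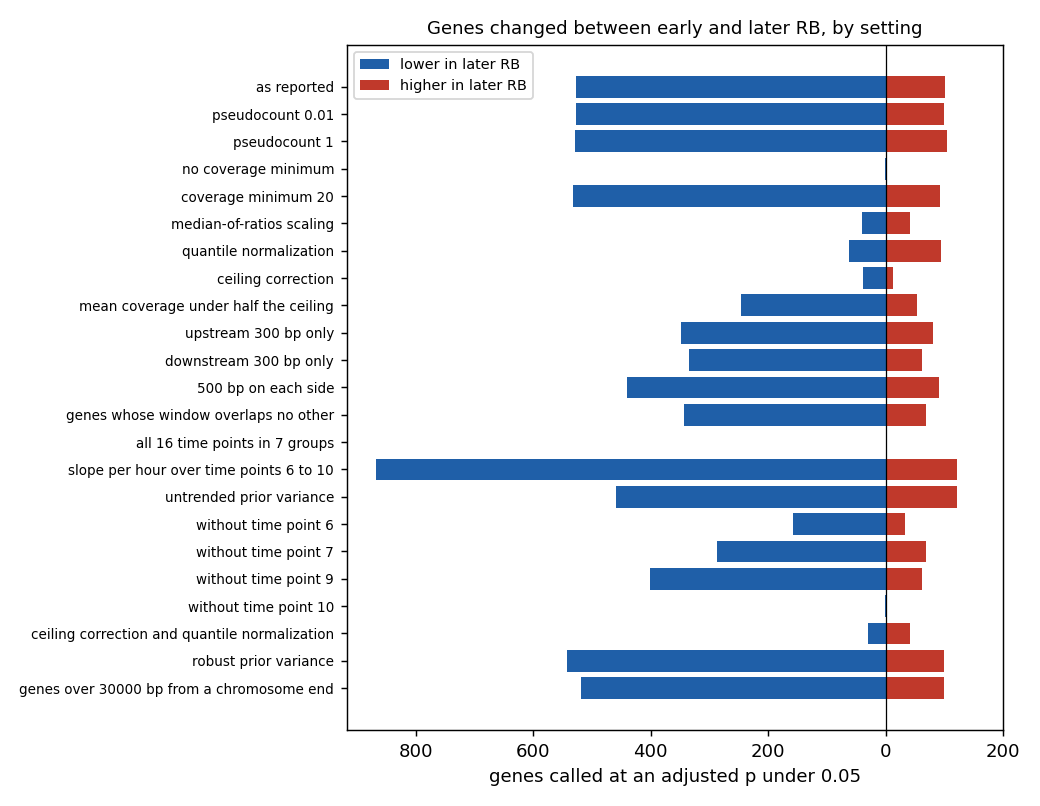
Number of genes called lower (blue, to the left) and higher (red, to the right) in later RB at an adjusted p under 0.05 in limma, for the comparison as reported and each alternative setting. The counts are 527 and 101 as reported, 41 and 42 with median-of-ratios scaling, 868 and 121 with a slope over time points 6 to 10, and 1 and 0 without time point 10.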

How the data were processed

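Chromatin of a cycling culture was immunoprecipitated with an antibody to H3K18ac. Trimmomatic 0.32, SAMtools and bedtools are named for the reads in the submitters' processing notes, with STAR as aligner, whereas the study's methods name Bowtie and Ensembl release 91. Multimapped and duplicated reads were removed. The deposited files hold a coverage signal as made by the authors, reads counted at every base, with no scaling for depth. H3 and input were not used here.

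Window means (300 bp on each side of the start codon, R64 RefSeq coding starts, strand from the systematic name) were divided by the mean nuclear coverage and taken as log2 after a pseudocount of 0.1 was added. Genes were kept from a mean coverage of 5 reads per base upwards (5733 of 6002). Time points 9 and 10 were compared with 6 and 7 by limma 3.58.1 in R 4.3.3, with a trended prior variance and 2 residual degrees of freedom, two-sided, with Benjamini-Hochberg adjustment. With 1 library per time point, p-values measure the spread between neighbouring time points, which come from 1 culture as far as the labels say. The phases are those of the study, by time point. Other steps used Python 3.11.15, numpy 2.4.6 and pandas 2.3.3.

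In simulated data with 200 of 5733 genes changed, 79% of changes of 0.5 and 98% of changes of 1 on the log2 scale were recovered, with 4 false calls. These sizes exceed the median differences of the called genes, 0.28 for the higher and -0.24 for the lower. Neither a loss of contrast shared by a whole library nor a trend over time was built in. The 4 false calls therefore do not measure the errors among the reported calls. Read numbers assume reads of 51 bp, inferred from the ceiling. The members and the 34 gene lists were chosen with earlier results of these data known. The genes named are the 10 largest in each direction among called genes without overlap of the groups (of overlapping windows, the larger) and the 2 largest called genes of each list and direction. Others named were chosen after their values were seen. The 22 alternatives cover the pseudocount, minimum, scaling, ceiling, window, time points and prior variance. Promoter motifs were not analysed here.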

Additional observations from a re-analysis of the deposited data

How the results depend on the processing

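All 67 genes named by the rule kept their direction in every one of the 22 alternatives in which they were tested. They were chosen for large differences in the same libraries that the alternatives reuse, so this was largely set by the choice. The number of genes called was less stable. Within 1.5 times of the reported 628 were the other pseudocounts, a minimum of 20, the untrended prior, a window of 500 bp on each side (531 calls), the upstream window alone (429, of which 80 higher and 349 lower) and, chosen after seeing the data, the robust prior and the genes away from chromosome ends. There were 83 calls with median-of-ratios scaling (42 higher, 41 lower), 156 with quantile normalization (94 and 62), 51 with the ceiling correction (13 and 38) and, chosen after seeing the data, 72 with that correction and quantile normalization together (42 and 30). Among the 2532 genes under 0.5 of the ceiling 299 were called (53 and 246), and among the 3762 genes whose window overlaps no other 413 (69 and 344). The downstream window alone gave 396 (61 and 335). The slope over time points 6 to 10 called 989 (121 and 868). Without a coverage minimum 2 genes passed (1 and 1), and in a fit over all 16 time points none did in limma (0 and 0), where 217 had an unadjusted p under 0.05. Leaving out 1 time point gave 1 to 462 calls (0 to 69 higher, 1 to 401 lower), the fewest without time point 10 and 462 without time point 9. The prior degrees of freedom were infinite as reported and 8.62, 9.64 and 7.02 under the 3 other scalings. Whether this, the loss of contrast at time point 10 or the ceiling accounts for the lost calls was not tested. No paired analysis was possible because the time points carry no replicate numbers. No fold change at a window near 102 reads per base can be read as its full size.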
